A study of Mus musculus with 12 samples.

Results

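Voltage-gated sodium channels, voltage-gated calcium channels and TRP (transient receptor potential) channels were described in the geniculate ganglion of mouse embryos lacking BDNF or NT4. Members were all probe sets (groups of array probes read as 1 value) that the platform annotation assigns to a single gene symbol of the Scn, Cacna, Cacnb, Cacng or TRP A, C, M and V families. They numbered 54 genes on 123 probe sets, of 18194 genes with a single symbol and 45101 probe sets in all. The sodium channel family held 11 genes on 30 probe sets, the calcium channel family 24 genes on 55, and the TRP family 19 genes on 38. Each gene is read on the probe set of highest mean over the 12 arrays. The 35 genes with several probe sets were also read on each of them.

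The geniculate ganglion holds the sensory neurons that carry taste from the tongue and palate, together with somatosensory neurons of the outer ear. BDNF and NT4 are neurotrophins that act on these neurons through the same receptor, TrkB, and series information states that the study asked whether removing each alters expression differently. Total RNA of ganglia at embryonic day 14.5 was amplified and hybridized to Affymetrix mouse arrays. There were 4 groups of 3 arrays. In the BDNF line, on background C57BL/6J, these were BDNF wild type and BDNF knockout. In the NT4 line, on background 129, these were NT4 wild type and NT4 knockout. Each knockout therefore has its own wild type, and strain, colony and line cannot be told apart. The labels name biological replicates, but how many embryos made 1 RNA sample, and which alleles the knockouts carry, is not stated in the labels. P-values measure the spread between these RNA samples.

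Voltage-gated sodium channels open on depolarization and drive the upstroke of the action potential. Their alpha subunits form the pore, and their beta subunits set gating and surface level. Voltage-gated calcium channels admit calcium for transmitter release, firing and gene regulation. Their alpha1 subunits form the pore, whereas alpha2delta and beta subunits carry the channel to the membrane, and most gamma proteins in neurons are known as partners of AMPA-type glutamate receptors. TRP channels are cation channels opened by heat, cold, chemicals, stretch or lipid signals, and many are known from sensory neurons.

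The deposited intensities had array medians of 168 to 201, and 5.87% to 7.91% of probe sets per array lay under an intensity of 20, here called dim. Log2 values of replicates correlated at 0.967 to 0.985 across probe sets, against 0.919 to 0.945 for arrays of different lines. The Bdnf probe set 1422168_a_at was 233 ± 60 (SD, n = 3) in BDNF wild type and 25.1 ± 1.79 in BDNF knockout, in accord with those labels. A second Bdnf probe set, 1422169_a_at, did not fall, with 262 ± 16.2 in wild type and 315 ± 35.3 in knockout, without overlap, at a log2 difference of 0.27 ± 0.17 (SE, adjusted p 0.868 in limma's test). The Ntf5 probe set, for the gene of NT4, was 41.1 ± 6.56 in NT4 wild type and 38.6 ± 3.29 in NT4 knockout, so it checks nothing about the knockout. All 10 general neuronal markers had mean intensities of at least 1000. Replicate 2 of both wild types stood apart in sex-linked genes. Log2 Xist minus the mean log2 of 3 Y-linked genes was 8.09 and 7.92 there and 2.79 to 5.09 on the other 10 arrays, and the calls between the wild types that were lost without these arrays are named with their genes.

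Promoters are shown for the 4 genes whose difference between the wild types held in every alternative setting, and for Trpc1, whose second probe set gave the lowest adjusted p of any member in the BDNF comparison. Each run is the 250 bases before the annotated start, from RefSeq on GRCm38.p6, a C57BL/6J reference, 5′ to 3′ on the gene's strand, with CG dinucleotides in capitals. The corresponding 129 sequence was not used here.

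Cacna1f, chrX:7606853-7607102, plus strand: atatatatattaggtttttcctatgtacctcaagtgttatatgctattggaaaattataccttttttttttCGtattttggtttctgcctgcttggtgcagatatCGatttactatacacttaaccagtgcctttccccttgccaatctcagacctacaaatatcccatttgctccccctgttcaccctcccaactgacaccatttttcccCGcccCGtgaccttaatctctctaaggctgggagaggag

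Scn1a, chr2:66440838-66441087, minus strand: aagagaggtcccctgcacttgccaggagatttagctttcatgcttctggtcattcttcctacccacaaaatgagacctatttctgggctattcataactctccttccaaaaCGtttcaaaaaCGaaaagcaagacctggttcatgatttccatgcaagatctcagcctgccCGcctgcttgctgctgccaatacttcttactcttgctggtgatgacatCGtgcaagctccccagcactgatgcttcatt

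Trpm6, chr19:18749480-18749729, plus strand: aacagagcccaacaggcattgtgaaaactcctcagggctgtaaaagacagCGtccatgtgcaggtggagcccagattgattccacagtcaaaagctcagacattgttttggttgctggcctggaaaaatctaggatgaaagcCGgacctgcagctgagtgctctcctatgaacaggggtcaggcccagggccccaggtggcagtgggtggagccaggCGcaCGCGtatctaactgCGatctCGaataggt

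Cacna2d2, chr9:107399630-107399879, plus strand: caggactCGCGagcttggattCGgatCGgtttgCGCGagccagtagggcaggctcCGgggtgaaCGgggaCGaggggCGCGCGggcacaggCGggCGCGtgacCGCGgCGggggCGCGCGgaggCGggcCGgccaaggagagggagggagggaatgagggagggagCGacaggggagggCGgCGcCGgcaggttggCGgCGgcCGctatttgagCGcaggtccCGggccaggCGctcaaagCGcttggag

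Trpc1, chr9:95750349-95750598, minus strand: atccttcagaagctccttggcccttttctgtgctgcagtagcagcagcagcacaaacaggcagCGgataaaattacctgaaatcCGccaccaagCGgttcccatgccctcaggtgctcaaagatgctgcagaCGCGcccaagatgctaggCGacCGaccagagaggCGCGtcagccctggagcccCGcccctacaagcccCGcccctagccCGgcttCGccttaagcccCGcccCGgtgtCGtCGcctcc

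The Cacna1f and Scn1a windows held 4 CG dinucleotides each, Trpm6 7, Trpc1 17 and Cacna2d2 34. Of the 54 member genes, 44 matched the promoter table, with 58 windows and a median of 7 CG, against 6 over all 32851 windows. Windows of the 9 genes that differed between the wild types had a median of 6 (range 1 to 48), and those of the other members 7.5 (0 to 50). On both strands, the full cAMP response element TGACGTCA occurred in 0 of the 58 windows and in 1.55% of all windows. Its shorter form TGACG, which the full element contains, occurred in 10 of 58 (17.2%, against 17.8% of all), and the window of Trpc1 was 1 of them. TATAAA occurred in 5 of 58 (8.62%, against 12.4%). These shares describe letters in the windows only.

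Scn9a, the alpha subunit of peripheral sensory neurons that is needed for pain in humans and mice, read 3529, 3780 and 3652 in BDNF wild type and 3827, 3546 and 3891 in BDNF knockout. In NT4 wild type it read 3503, 3495 and 3378, and in NT4 knockout 3110, 3392 and 3677. Each knockout overlapped its own wild type, and NT4 wild type lay below both BDNF-line groups, at a log2 difference of −0.08 (95% interval −0.30 to 0.14) from BDNF wild type. Its brightest probe set gave log2 differences of 0.04 (95% interval −0.18 to 0.26) for BDNF knockout and −0.03 (−0.25 to 0.19) for NT4 knockout, each against its own wild type. Its 4 other probe sets gave −0.14 to 0.10 for BDNF and −0.19 to −0.03 for NT4.

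Scn7a, a sodium-sensing relative of the alpha subunits found in glia and sensory neurons, ranged from 4771 to 6649 over the 12 arrays. Scn2a and Scn3a, alpha subunits of developing neurons, ranged from 2075 to 3503 and from 1245 to 2051. Scn8a, the main alpha subunit of mature nodes of Ranvier, ranged from 1434 to 2475. None of these 4 genes had a difference between knockout and wild type larger than 0.10 on the log2 scale, and all of their intervals lay within 0.50 of 0. The beta subunit genes Scn2b and Scn3b ranged from 2443 to 3034 and from 2401 to 3306 on their brightest probe sets. Scn11a and Scn10a encode the tetrodotoxin-resistant alpha subunits of nociceptors. Scn11a ranged from 613 to 1122 and Scn10a from 64.6 to 174. Neither was dim in any group.

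**Figure D1:**
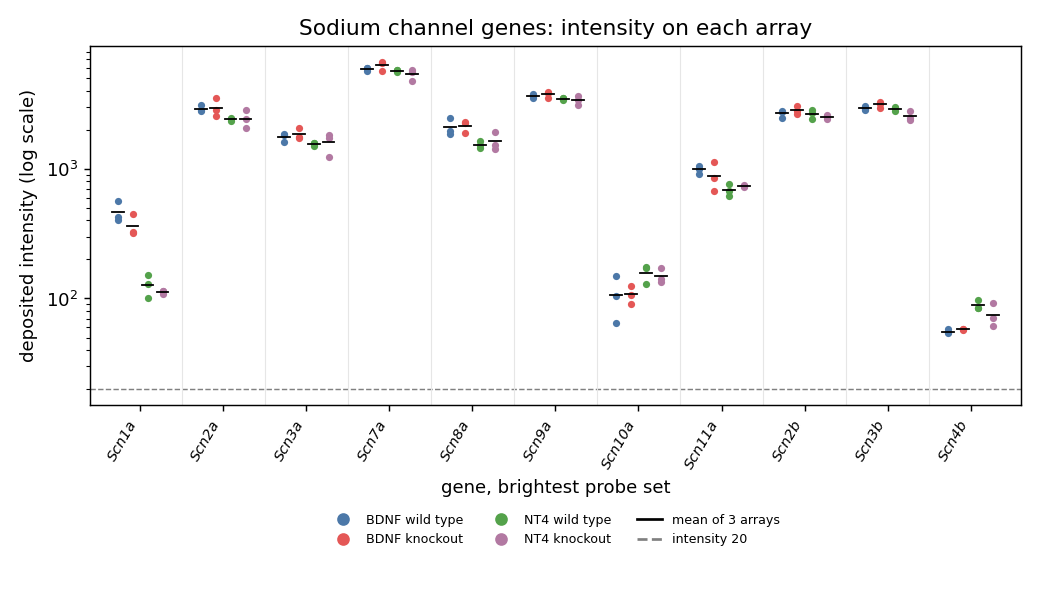
Deposited intensity (log axis) of the brightest probe set of each sodium channel gene on the 12 arrays, 1 point per array coloured by group, with group means as black bars and the dim level of 20 dashed. Scn1a lies between 317 and 561 in the BDNF line and between 100.2 and 153 in the NT4 line.

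Among calcium channel pore genes, Cacna1b, the N-type channel of sensory nerve terminals, ranged from 5241 to 7331. Cacna1a, the P/Q-type channel of presynaptic terminals, ranged from 1493 to 2150. Cacna1h, the T-type channel of low-threshold sensory neurons, ranged from 748 to 1151, and its relative Cacna1g from 70.1 to 239. Cacna1d, an L-type channel, ranged from 212 to 426. Cacna1e, the R-type channel, ranged from 562 to 1626, with both its lowest and its highest value in the NT4 line. All these genes were read well above the dim level in each group.

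The alpha2delta subunits were measured with 4 genes. Cacna2d1, the subunit bound by gabapentin, ranged from 1226 to 1654 on its brightest probe set, and Cacna2d3 from 971 to 1953. Cacna2d2 ranged from 2675 to 5577, with every array of the NT4 line below every array of the BDNF line. Cacng5, a gamma protein that modulates AMPA receptors, ranged from 2415 to 4149. Cacng1, the gamma subunit of the skeletal muscle channel, ranged from 89.4 to 137, and Cacna1s, the pore of that channel, from 12.9 to 50.2. Cacna1s was the only calcium channel gene whose brightest probe set was dim in any group, with means of 18.4 ± 2.13 in BDNF wild type and 14.4 ± 1.93 in BDNF knockout (SD, n = 3).

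**Figure D2:**
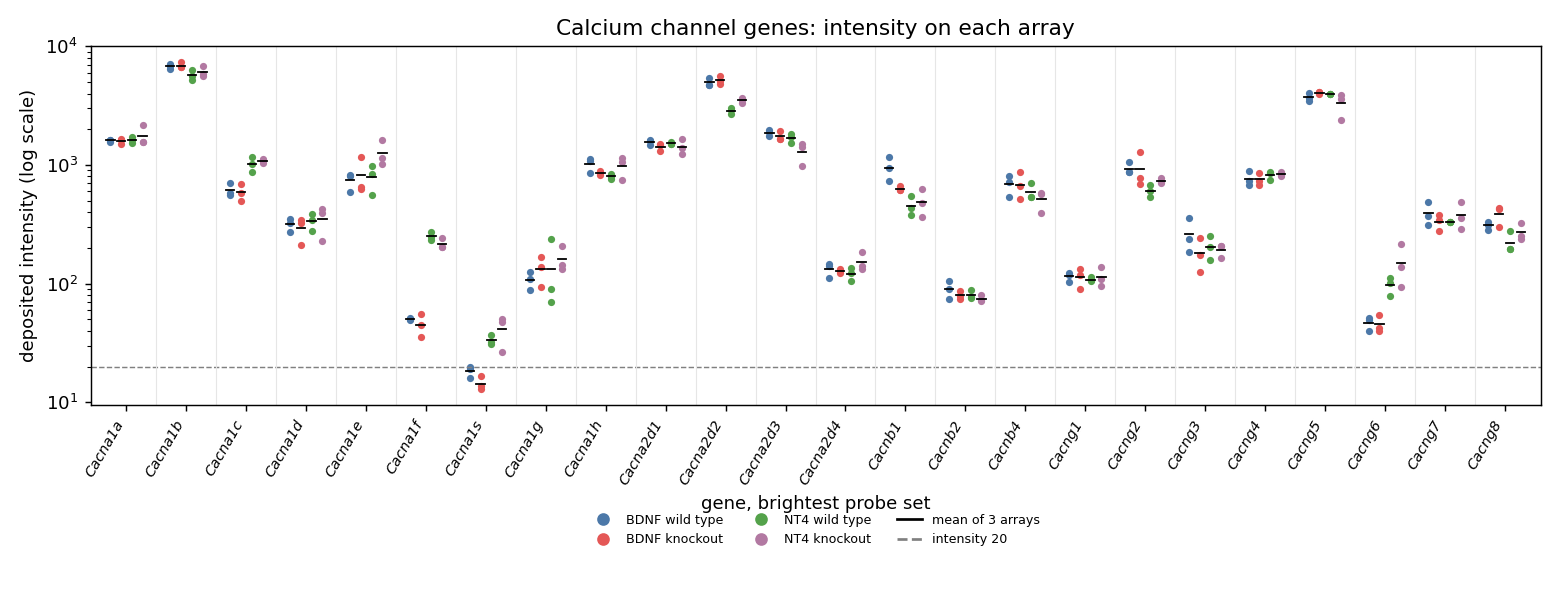
Deposited intensity (log axis) of the brightest probe set of each calcium channel gene on the 12 arrays, drawn as for the sodium channel genes. Cacna1f separates the lines most widely, with 35.3 to 55.0 in the BDNF line and 202 to 273 in the NT4 line, and Cacna1s lies on either side of the dim level of 20.

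In the TRP family, Trpv2, known from larger sensory neurons, ranged from 2336 to 2947. Trpm7, a channel with a kinase domain that carries magnesium and is widely expressed, ranged from 488 to 742. Trpm5, the channel that depolarizes taste receptor cells, ranged from 82.9 to 151, and Trpm8, the cold and menthol receptor, from 46.5 to 74.0. Trpa1, the receptor of pungent irritants, ranged from 14.9 to 65.9 with no group mean under 20. Trpv1, the capsaicin and heat receptor, had means under 20 in 3 groups: 17.6 ± 6.45 in BDNF wild type, 17.2 ± 4.58 in NT4 wild type and 16.6 ± 7.20 in NT4 knockout (SD, n = 3). Values this low carry the least information on a difference. No member probe set had all 4 group means under 20.

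**Figure D3:**
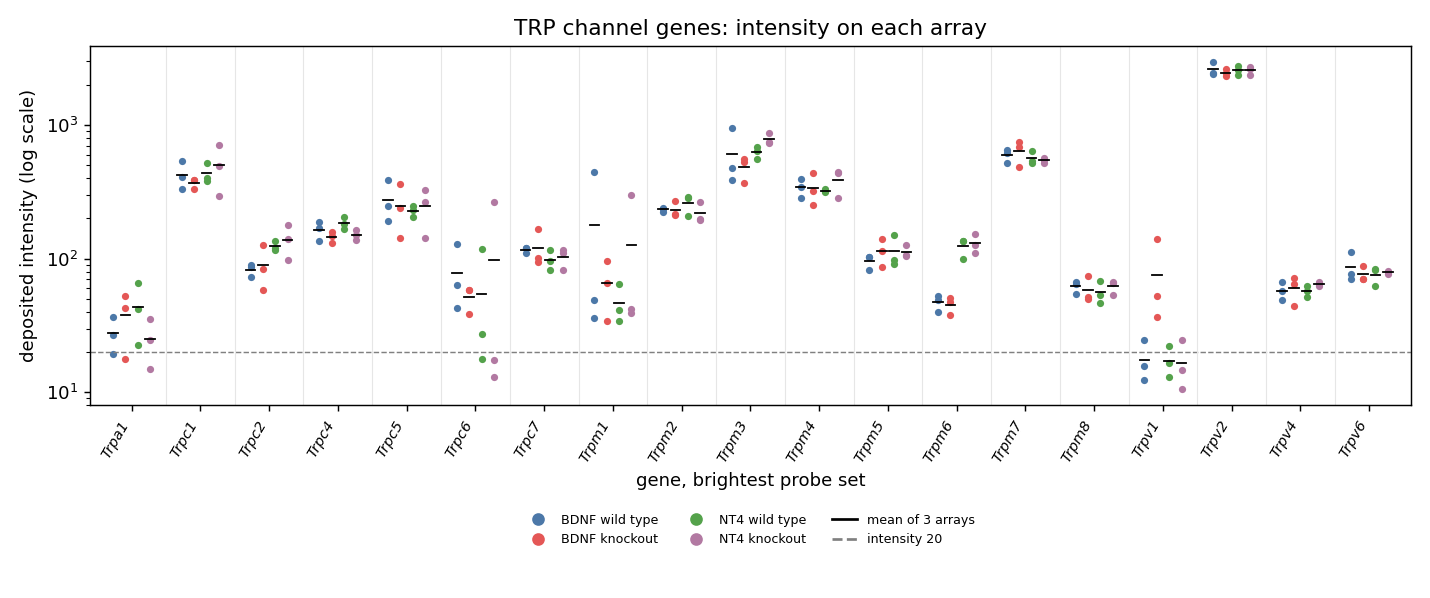
Deposited intensity (log axis) of the brightest probe set of each TRP channel gene on the 12 arrays, drawn as for the sodium channel genes. The 3 BDNF knockout arrays of Trpv1 read 36.5 to 139 and the other 9 arrays 10.6 to 24.8, and Trpm1 and Trpc6 each have single high arrays.

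Loss of BDNF left 0 of the 54 channel genes past the threshold, an adjusted p under 0.05 in limma's test adjusted over all 45037 probe sets that are no array control. The background was 0.0275% of all 18192 genes tested, or 5 genes, so the members' count is near it. At an unadjusted p under 0.05, 2 members (3.70%) differed, against 6.15% of all genes. The members' median log2 difference was −0.04, against −0.02 over all genes. For 46 of 54 genes the 95% interval lay within 1 on either side of 0, which is a fold of 2, and for 25 it lay within 0.5. All 11 sodium channel genes were among the 46. Fewer cells of a type and less RNA per cell cannot be told apart in these bulk samples.

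Trpv1 and Cacnb1 were the members with an unadjusted p under 0.05. Trpv1 read 12.3, 24.8 and 15.7 in BDNF wild type and 52.2, 36.5 and 139 in BDNF knockout. The groups did not overlap, and 1 knockout array was far above the others. The log2 difference was 1.93 ± 0.49 (SE), with an adjusted p of 0.423 in limma's test. Between the knockouts of the lines, Trpv1 was lower in NT4 knockout at −2.04 ± 0.49 (adjusted p 0.016 in limma's test). In that comparison, added after the data were seen, strain also differs, and 15.6% of all probe sets passed. It uses the same 3 high BDNF knockout arrays, against a dim group, and so adds no separate evidence on the knockout. Cacnb1, a beta subunit known from skeletal muscle and neurons, read 944, 1166 and 727 in BDNF wild type and 617, 663 and 620 in BDNF knockout. Again the groups did not overlap, with a log2 difference of −0.55 ± 0.23 and an adjusted p of 0.706 in limma's test. Its 3 other probe sets gave −0.22 to 0.01.

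Sums of some marker lists did not overlap between the same groups. Those of the general neuronal, visceral and gustatory, glial, skeletal muscle, endothelium, melanocyte, cartilage and inner ear lists overlapped. The share of all genes without overlap is not given here. The sum of 4 somatosensory neuron markers was 8449 to 9158 in BDNF wild type and 5449 to 7011 in BDNF knockout. For 6 smooth muscle and pericyte markers it was 1606 to 2098 and 2452 to 3269, and for 6 macrophage markers 1959 to 2146 and 2489 to 3179. For 3 noradrenergic markers it was 6316 to 6563 and 6680 to 8313. All 4 somatosensory markers gave log2 differences below 0. In the smooth muscle and macrophage lists, 5 of 6 each gave differences above 0. All 3 noradrenergic markers did, with Dbh and Slc6a2 at 0.12 and Th at 0.69. None of these marker genes passed limma's test in the BDNF comparison, and their part in the channel values was not tested.

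Trpc1, a subunit of store- and receptor-operated channels, gave different values on its probe sets. Probe set 1421095_a_at read 247, 280 and 309 in BDNF wild type and 160, 170 and 182 in BDNF knockout. The groups did not overlap, the log2 difference was −0.70 ± 0.11 (SE), and the adjusted p was 0.153 in limma's test, the lowest of any member probe set. Its brightest probe set, 1421096_at, read 535, 331 and 408 in wild type and 386, 330 and 386 in knockout, with overlapping groups and a log2 difference of −0.18 ± 0.29. In the NT4 line the first of these probe sets read 225 to 257 on all 6 arrays. The authors' deposited table lists 1421095_a_at at a signed fold of −1.63 and an unadjusted p of 0.0172.

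On their brightest probe sets, the other named members did not reach an unadjusted p under 0.05. Scn1a was 463 ± 85.1 in BDNF wild type and 365 ± 74.5 in knockout (SD, n = 3), a log2 difference of −0.35 ± 0.20 (SE, adjusted p 0.835 in limma's test). Cacng3, an AMPA receptor partner, gave −0.52 ± 0.29, with an interval of −1.17 to 0.13 and an adjusted p of 0.838. Trpc4, a receptor-operated channel, gave −0.15 with an interval of −0.48 to 0.17. Scn11a gave −0.20 with an interval of −0.58 to 0.18. On chromosome 2, which carries Bdnf, 9 members lay with 163 to 615 measured genes between them and Bdnf, and their BDNF differences ran from −0.35 to 0.09.

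Loss of NT4 likewise left 0 of 54 genes past the threshold, against 0.0055% of all genes, which is 1 gene. At an unadjusted p under 0.05, 3 members (5.56%) differed, against 4.61% of all genes. The median log2 difference of the members was 0.05 and that of all genes 0.03. Intervals lay within 1 of 0 for 47 of 54 genes and within 0.5 for 18. Centring each array on its median moved the median over all probe sets from 0.05 to −0.07, a shift of more than 0.1, so small signed NT4 differences depend on the scaling.

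The 3 NT4 genes with an unadjusted p under 0.05 were calcium channel subunits. Cacna2d2 read 3029, 2897 and 2675 in NT4 wild type and 3343, 3672 and 3535 in NT4 knockout. The groups did not overlap, and the log2 difference was 0.30 ± 0.11 (SE) with an adjusted p of 0.852 in limma's test. On its other probe sets the groups overlapped, with 0.193 ± 0.312 on 1451955_a_at and −0.395 ± 0.327 on 1426185_at. Cacna2d3 read 1720, 1811 and 1539 in wild type and 971, 1496 and 1406 in knockout. These groups did not overlap, and the log2 difference was −0.41 ± 0.16 with an adjusted p of 0.858. Cacna1e read 837, 985 and 562 in wild type and 1150, 1027 and 1626 in knockout, without overlap, at 0.68 ± 0.29 and an adjusted p of 0.877.

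Among the remaining named genes, Scn3b gave −0.19 (95% interval −0.42 to 0.03) and Scn4b, a beta subunit linked to resurgent current, −0.28 (−0.59 to 0.04) for NT4. Trpc4 gave −0.30 (−0.63 to 0.03). Trpa1 read 65.9, 22.8 and 42.0 in NT4 wild type and 14.9, 35.6 and 24.6 in NT4 knockout, with overlapping groups and a log2 difference of −0.76 (−1.88 to 0.36). Of the marker lists, only the macrophage and noradrenergic sums did not overlap in the same comparison. The macrophage sum of the 6 genes was 1476 to 2248 in NT4 wild type and 2744 to 4581 in NT4 knockout, with 5 of the 6 above 0 in log2 difference and none past the threshold. The sum of the 3 noradrenergic markers was 2644 to 2812 and 1215 to 1423. Among them Slc6a2 fell by 1.25 ± 0.11 (SE, adjusted p 0.0113 in limma's test), and Dbh gave 0.01 and Th −0.51. The part of these cells in the channel values was not tested.

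**Figure D4:**
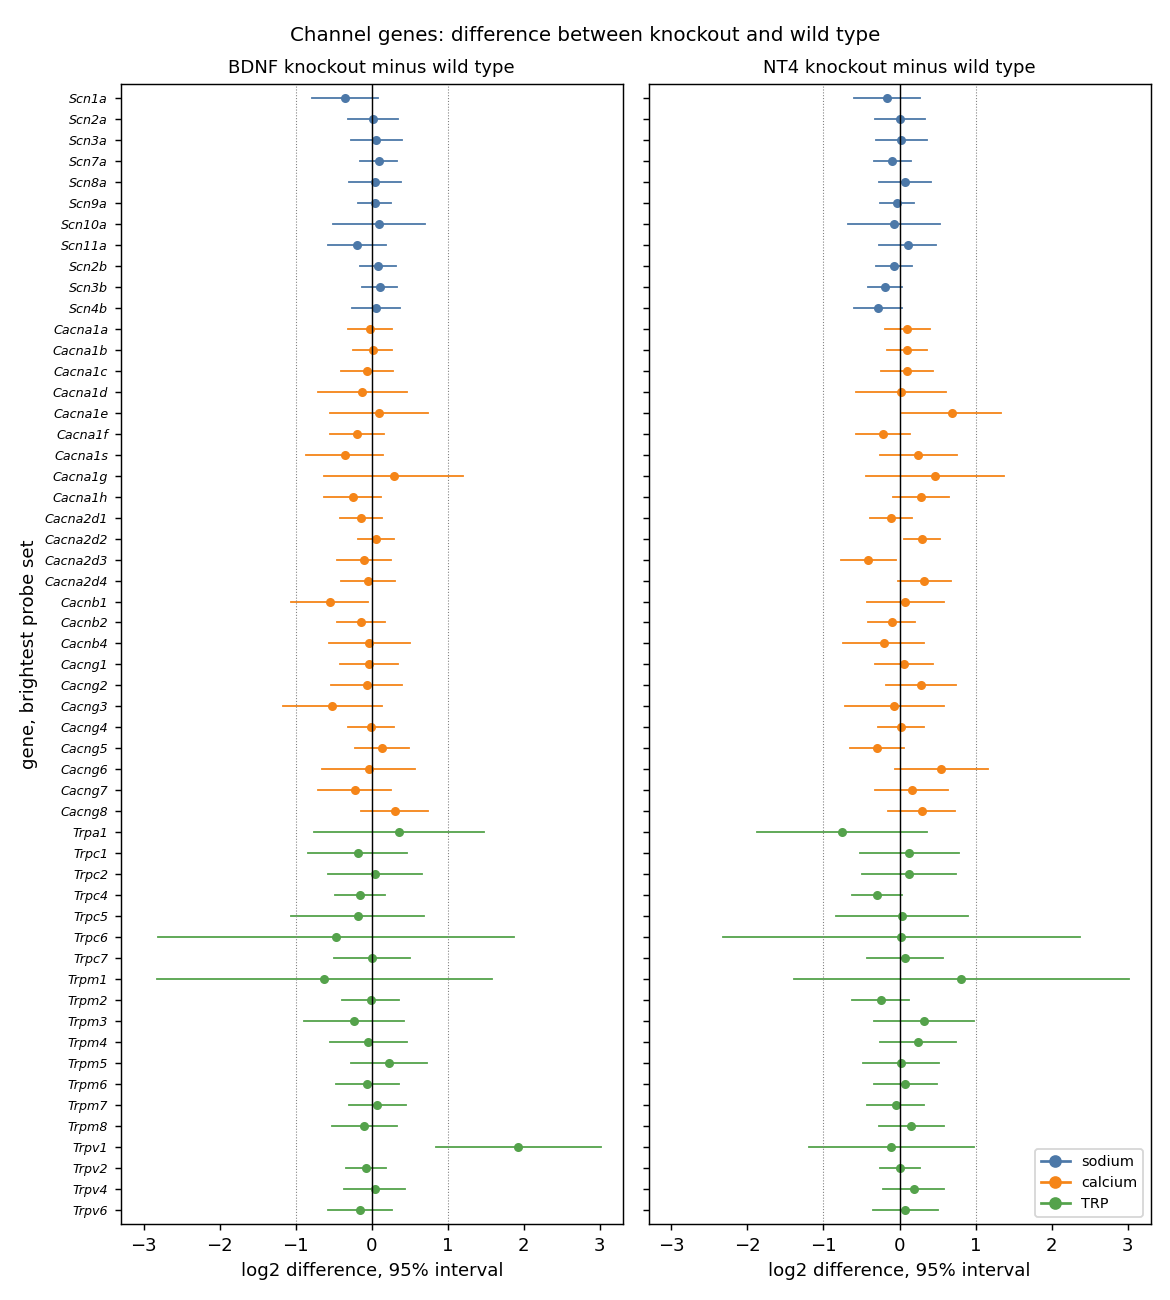
Log2 difference between knockout and wild type for the brightest probe set of each of the 54 genes, with 95% intervals from limma, for BDNF (left) and NT4 (right). Dotted lines mark 1 on either side of 0, and the intervals of 46 genes for BDNF and 47 for NT4 lie between them, whereas Trpc6, Trpm1, Trpa1 and Trpv1 have wide intervals.

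The difference between the BDNF and NT4 effects passed the threshold for 0 of 54 genes, against 0.011% of all genes. At an unadjusted p under 0.05, 2 members (3.70%) differed, against 4.96%. Trpv1 was higher by 2.04 ± 0.69 (SE; 95% interval 0.50 to 3.57) on the log2 scale in the BDNF effect than in the NT4 effect, with an adjusted p of 0.773 in limma's test. Cacna1h gave −0.53 ± 0.24 (−1.06 to −0.01) and an adjusted p of 0.854. It read 1129, 857 and 1081 in BDNF wild type against 855, 883 and 823 in knockout. In NT4 wild type it read 765, 798 and 840 against 748, 1066 and 1151 in knockout. Both comparisons overlapped. Intervals of the difference lay within 1 of 0 for 36 of 54 genes, so a fold of 2 between the effects was not excluded for the other 18.

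The authors' deposited tables hold few channel probe sets. The BDNF list had 2 of the 123 (1.63%, against 1.48% of all probe sets) and the NT4 list 3 (2.44%, against 1.49%). Besides Trpc1, the authors' deposited table for BDNF has Cacna1c, the L-type channel of heart and brain, on 1435730_at with a signed fold of −1.31. The authors' deposited table for NT4 has Scn1a on 1450121_at with −1.33, Scn2b on 1430648_at with −1.40 and Cacna2d2 on 1450754_at with 1.23. None of these 5 passed limma's test, and the adjusted p for them ran from 0.153 to 0.895.

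More genes passed between the lines than between the genotypes. Between the wild types, 9 of the 54 genes (16.7%) passed the threshold, against 14.1% of all genes, so the share was near the background. Of the 9, 6 were higher and 3 lower in the 129 wild type of the NT4 line than in the C57BL/6J wild type of the BDNF line, where all genes had 6.01% higher and 8.11% lower. By family, they were 2 of 11 sodium channel genes, 6 of 24 calcium channel genes and 1 of 19 TRP genes. The median log2 difference was −0.06 for the members and for all genes alike. The signs of all 9 were the same between the knockout arrays of the lines, and 7 passed the threshold there, where 15.6% of all probe sets did. The 9 were selected for a difference between the same lines, so this share of unselected probe sets is no like measure for them. The share among all genes that passed between the wild types is not given here. The comparison of the knockouts was added after the data were seen.

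Cacna1f, an L-type pore known from photoreceptors, had the widest difference. It read 50.8, 51.7 and 49.5 in BDNF wild type, and 232, 273 and 245 in NT4 wild type. The knockout arrays read 35.3, 55.0 and 45.1 in the BDNF line and 202, 202 and 242 in the NT4 line. Every NT4-line array lay above every BDNF-line array, and the log2 difference of the wild types was 2.30 ± 0.16 (SE, adjusted p 4.07e-06 in limma's test). Cacna1f is on the X chromosome and has a single probe set. Without both wild-type arrays that stood apart in sex-linked genes it still passed the threshold.

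Scn1a, an alpha subunit whose loss causes epilepsy in humans, was lower in the 129 line. Its brightest probe set, 1450120_at, read 561, 404 and 425 in BDNF wild type and 129, 153 and 100.2 in NT4 wild type. The groups did not overlap, and the log2 difference was −1.87 ± 0.20 (SE, adjusted p 6.91e-05 in limma's test). Between the knockouts it was −1.68 ± 0.20. The other probe sets of Scn1a did not follow, with 0.18 ± 0.20 on 1450121_at and −0.28 ± 0.15 on 1441728_at.

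Cacna2d2, the alpha2delta subunit whose loss causes ataxia in mice, read 5383, 4763 and 4739 in BDNF wild type against the NT4 wild-type values above. The log2 difference was −0.79 ± 0.11 (SE, adjusted p 0.000423 in limma's test). Its probe sets went in opposite directions. On 1426185_at the difference was −1.19 ± 0.33, and on 1451955_a_at it was 1.07 ± 0.31, each past the threshold. A direction for the gene as a whole is therefore not given by these probe sets.

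Trpm6, a magnesium channel of kidney and gut, read 52.7, 40.0 and 48.9 in BDNF wild type and 136, 99.5 and 136 in NT4 wild type. Groups did not overlap, at a log2 difference of 1.39 ± 0.19 (SE, adjusted p 0.000427 in limma's test) and of 1.52 ± 0.19 between the knockouts. Its second probe set, 1438877_at, gave −0.25 ± 0.16. Scn4b read 55.3, 53.8 and 57.7 in BDNF wild type and 85.2, 84.8 and 96.8 in NT4 wild type. This was a log2 difference of 0.68 ± 0.14 (adjusted p 0.00827), with 0.34 ± 0.14 (adjusted p 0.15) between the knockouts. Without both wild-type arrays that stood apart in sex-linked genes its adjusted p was 0.0657.

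Cacna1c was higher in the 129 wild type on its brightest probe set by 0.73 ± 0.15 (SE, adjusted p 0.00863 in limma's test), from 613 ± 76.3 to 1017 ± 146 (SD, n = 3). On its other probe set it gave −0.44 ± 0.20 and did not pass. Without both arrays that stood apart in sex-linked genes the brightest probe set gave 0.55 with an adjusted p of 0.118 and no longer passed. Cacnb1 was lower there, with a log2 difference of −1.04 ± 0.23 (adjusted p 0.01), from 946 ± 220 to 455 ± 87.1, and its 3 other probe sets gave −0.28 to 0.01. Between the knockouts Cacnb1 gave −0.42 ± 0.23 with an adjusted p of 0.276. Cacng6, a gamma subunit related to that of muscle, was higher by 1.05 ± 0.27 (adjusted p 0.0265), from 46.7 ± 6.17 to 97.4 ± 17.5. Its second probe set gave 0.20 ± 0.15. Cacng6 no longer passed without replicate 1 or 3 of either wild type (adjusted p 0.0574 to 0.0998), nor without both arrays that stood apart in sex-linked genes (0.0574).

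Cacna1s read 19.2, 20 and 16 in BDNF wild type and 37.1, 31.3 and 32.6 in NT4 wild type, a log2 difference of 0.88 ± 0.23 (SE, adjusted p 0.0263 in limma's test). The BDNF group was dim. Cacna1s no longer passed without BDNF wild-type replicate 1 or 3, or without any 1 of the NT4 wild-type replicates (adjusted p 0.0574 to 0.0958), nor without both arrays that stood apart in sex-linked genes (0.0889). The summed intensity of 12 skeletal muscle markers was 1323 to 2572 in BDNF wild type and 1218 to 4735 in NT4 wild type. Of the 12, 11 gave log2 differences above 0, and none passed the threshold. The BDNF value of 2572 was on replicate 2, where Chrng alone read 1458. On the NT4 wild-type array of the highest muscle sum, replicate 3, Cacna1s read 32.6, between the other arrays of its group. The part of muscle in the difference was not tested.

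Over all 123 probe sets, 18 (14.6%) differed between the wild types, against 13.9% of all probe sets, and they belonged to 15 genes. The 6 further genes differed on a probe set other than their brightest. Cacna2d1 gave −1.90 on 1440397_at, and its brightest probe set −0.04. Trpm2, a channel opened by oxidative stress, gave −1.14 on 1459482_at and 0.14 on its brightest. Trpm3, a heat and steroid receptor of sensory neurons, gave 2.22 on 1443723_at and 1.39 on 1441966_at, against 0.16 on its brightest. Scn2b gave −0.80 on 1430648_at and −0.01 on its brightest. Cacng8 gave −0.56 on 1451864_at and −0.50 on its brightest, which did not pass at an adjusted p of 0.146 in limma's test. Trpm1 gave 0.74 on 1440241_at and −1.03 on its brightest, which did not pass either. All 18 had the same sign between the knockouts, and 15 passed there. These 18 were likewise selected for a difference between the lines, and the like share over all probe sets is not given here.

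**Figure D5:**
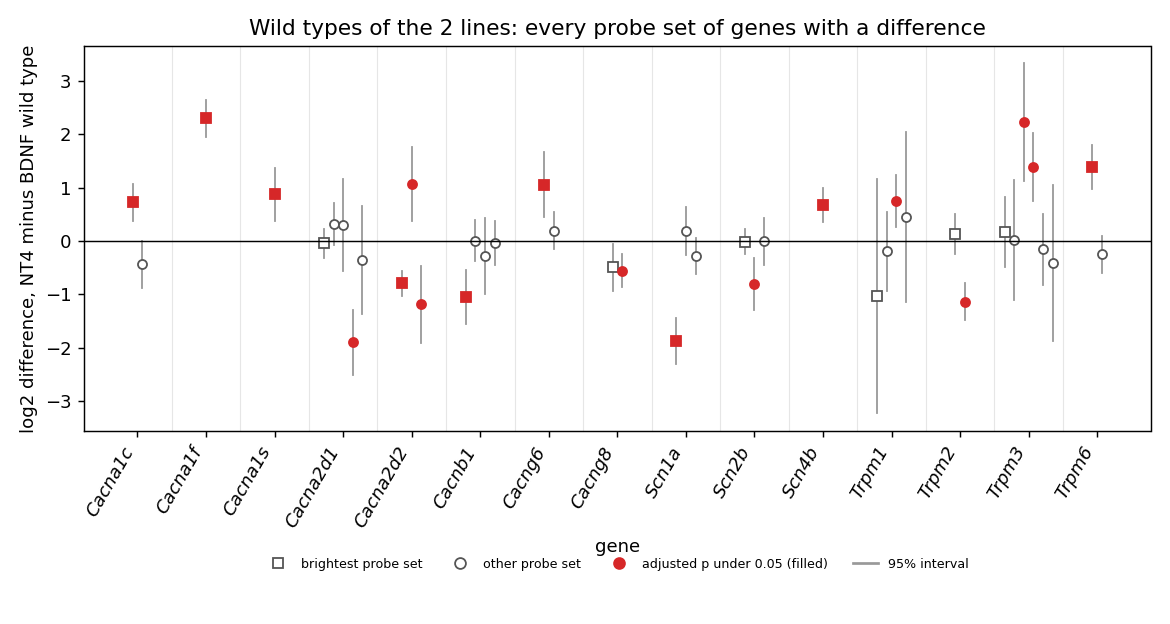
Log2 difference of the NT4 wild type minus the BDNF wild type for every probe set of the 15 genes with at least 1 probe set past the threshold, with 95% intervals from limma. Squares are brightest probe sets, circles other probe sets, and red filled marks passed. Of these genes, 3 (Cacna1f, Cacna1s and Scn4b) have 1 probe set only, and the 3 probe sets of Cacna2d2 passed in both directions.

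At an unadjusted p under 0.05, 14 members (25.9%) differed between the wild types, against 25.4% of all genes. Besides the 9 above and Cacng8 they were Scn11a, Scn8a, Scn10a and Cacng2, a gene named here after its values were seen. Scn11a read 1003, 921 and 1050 in BDNF wild type and 671, 770 and 613 in NT4 wild type. The groups did not overlap, and the log2 difference was −0.54 ± 0.17 (SE, adjusted p 0.0664 in limma's test). Scn11a passed without BDNF knockout replicate 2 (adjusted p 0.0293) or replicate 3 (0.0216). Scn8a gave −0.44 ± 0.15 (adjusted p 0.0957), and Cacng2, an AMPA receptor partner, −0.62 ± 0.21 (adjusted p 0.0804). Scn10a gave 0.65 ± 0.27 (adjusted p 0.168), and 0.93 (adjusted p 0.0345) without BDNF wild-type replicate 1. Among the TRP genes, Trpc2, the channel of the rodent vomeronasal organ, had the lowest p after Trpm6, at 0.58 ± 0.28 (adjusted p 0.233). Some markers of neurons and of other cells also differed between the lines, where 14.1% of all genes passed. None of the 10 general neuronal markers passed, nor any of the 12 skeletal muscle, 6 melanocyte and 6 macrophage markers. Of 5 visceral and gustatory markers, Phox2a passed limma's test at −1.55 (adjusted p 7.33e-06) and Tlx3 at 2.32 (adjusted p 4.69e-06), in opposite directions. The others of this list did not pass, with P2rx2 at 0.097, P2rx3 at −0.001 and Ntrk2 at −0.186. Sums of 5 cartilage markers were 10830 to 16610 in BDNF and 7340 to 9873 in NT4 wild type. For 5 endothelium markers they were 2576 to 3000 and 1510 to 2510. In both lists every log2 difference was below 0 and none passed. Of 7 inner ear, 6 smooth muscle and pericyte, and 5 glial markers, 3, 2 and 1 passed. Those of the inner ear and of smooth muscle and pericytes were lower in the 129 wild type, and Foxd3 of glia higher. The sum of 3 noradrenergic markers was 6316 to 6563 in BDNF wild type and 2644 to 2812 in NT4 wild type. Of its members, Slc6a2 was lower in the 129 wild type at −1.43 ± 0.11 (adjusted p 6.67e-06), whereas Dbh gave 0.14 and Th −0.16. The sum of 4 somatosensory markers was 8449 to 9158 and 5318 to 6033. Of these, Pou4f1 was lower at −1.46 ± 0.15 (adjusted p 6.72e-05), and Runx1 gave −0.34, Prrxl1 0.04 and Avil 0.09. Their part in the channel differences between lines was not tested.

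Trpm1 and Trpc6 had single high arrays within groups. Trpm1, a channel of melanocytes and retinal bipolar cells, read 448 on BDNF wild-type replicate 2 and 299 on NT4 knockout replicate 1, and 34.1 to 96.7 on the other 10 arrays. The summed intensity of 6 melanocyte markers was 2633 on that NT4 knockout array and 667 on that BDNF wild-type array. Elsewhere the sum was 403 to 1002, except 1784 on NT4 knockout replicate 3. None of the 6 markers had a mean under 20. Trpc6, a channel opened by diacylglycerol, read 263 on NT4 knockout replicate 1, 128 on BDNF wild-type replicate 2 and 117 on NT4 wild-type replicate 3. Its other 9 arrays read 13.0 to 63.6. The same 3 arrays had the highest sums of skeletal muscle markers, 3399, 2572 and 4735, against 1168 to 2255 elsewhere. The single marker Chrng held 1249, 1458 and 1033 of these sums. On BDNF wild-type replicate 2, Myh3, Actc1 and Myog read only 162, 51.0 and 17.6, so the sum there was mostly Chrng. The part of these cells in the 2 genes was not tested.

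Trpm3 probe set 1443723_at read 17.2, 53.0 and 21.3 in BDNF wild type, 26.6, 13.5 and 21.2 in BDNF knockout, and 133, 115 and 129 in NT4 wild type. In NT4 knockout it read 211, 165 and 555. The array of the highest value also had the highest Mitf of any array, at 1340, and the highest Oc90, an inner ear gene, at 352. The other 5 melanocyte markers read 58.2 to 121 there, and all 5 were highest on NT4 knockout replicate 1. The sum of 7 inner ear markers was 806 there and 559 to 971 over all arrays. The NT4 difference of this probe set was 1.09 ± 0.50 (SE, adjusted p 0.89 in limma's test).

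Channel partners give a wider view of the same pathway. Of 52 listed genes (sodium channel anchors and regulators, acid-sensing channels, store-operated channels, release channels and TRP relatives), 49 were measured. None of them passed limma's test for BDNF, for NT4 or for the difference of effects, and 8, 3 and 7 had an unadjusted p under 0.05. These were 16.3%, 6.12% and 14.3% of the partners, against 6.15%, 4.61% and 4.96% of all genes. Cntn2, an adhesion protein of sensory axons, had the lowest p for BDNF at −0.43 ± 0.13 (SE). Itpr3, the calcium release channel of taste receptor cells, had the lowest p for NT4, at a log2 difference of 0.41. Between the wild types, 3 (6.12%) passed, against 14.1% of all genes. Rims1, an active zone protein that binds calcium channels, was lower in the 129 wild type, at a log2 difference of −2.33. Plcb4, a phospholipase, was lower at −0.66, and Plcb2, the phospholipase of taste receptor cells, higher at 1.18. Partners were read on their brightest probe sets only, so other probe sets of these 3 genes were not compared.

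Several members are next to each other among measured genes: Scn3a and Scn2a, Scn9a and Scn7a, Scn10a and Scn11a, Scn2b and Scn4b, Cacng7 and Cacng8, and the run of Cacng1, Cacng4 and Cacng5. Neighbours did not share a wild-type difference on their brightest probe sets: Scn4b passed and Scn2b did not, and no other of these genes passed.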

How the data were processed

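Per the labels, RNA was isolated on columns with DNase I treatment, then amplified and biotinylated with WT-Ovation Pico reagents. The authors deposited 1 linear intensity per probe set and array. Their background handling and array scaling are not given in the sources used here. Also deposited by the authors were a BDNF and an NT4 probe set list with a signed fold (a score), linear means and an unadjusted p-value, per the file headers. Listed probe sets all had an unadjusted p under 0.05, a difference of means of 50 or more and a fold of 1.2 or more.

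Deposited intensities were put on the log2 scale without an offset. Without the 64 array controls, 45037 probe sets on 12 arrays were fitted with group means (R 4.3.3, limma 3.58.1, functions lmFit and eBayes, 8 residual and 2.27 prior degrees of freedom). P-values are two-sided and adjusted by Benjamini-Hochberg over all these probe sets, with a threshold of 0.05. Intervals are at 95%. Data for the BDNF comparison were simulated over 45037 probe sets. Of 100 log2 changes of size 1, 41 were recovered, and of 100 of size 2, 84, with 3 false calls. The real spreads were shuffled across probe sets, so their link to intensity was not kept. These shares are therefore no measure of recovery for bright or for dim members. Precision is limited by the number of arrays.

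The platform annotation gave 1 symbol for 34945 probe sets, several for 932 and none for 9160, and all 54 member symbols matched the RefSeq gene table of GRCm38.p6, used for names, chromosomes and gene order. No per-array column was left unmapped. Members and lists were chosen with earlier results of these data known. Named genes are those called on any probe set, the 4 brightest and the 2 of lowest p per family and contrast, genes listed by role and those in the authors' lists. Same-numbered replicates of groups had correlations of their deviations from −0.16 to 0.10, so the numbers were not taken as pairs. Alternatives were other scalings, an offset of 16, a floor of 20, a filter on dim probe sets, 6 arrays only, each array left out, a replicate block, and the t-test criteria of the authors' lists.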

Additional observations from a re-analysis of the deposited data

How the results depend on the processing

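None of the 20 gene differences checked changed sign in any alternative. The member count stayed 0 for BDNF, NT4 and the difference of effects in every alternative, except 1 gene (Cacna2d2) for NT4 under the t-test criteria of the authors' lists. Between the wild types the 9 members became 7 to 10 with 1 array left out, 6 with a replicate block, and 15 on any probe set. Without both wild-type arrays that stood apart in sex-linked genes they became 5 (Cacna1c, Cacna1s, Cacng6 and Scn4b were lost). On knockout arrays, a comparison added after the data were seen, 8 members passed, and 7 of them were among the 9. Cacna1f, Cacna2d2, Scn1a and Trpm6 passed in every alternative. Cacna1s and Cacng6 were lost in 6 alternatives each, mostly with 1 wild-type array left out, where their adjusted p in limma's test ran up to 0.0958 and 0.0998. Scn4b was lost in 3, Cacna1c in 2 and Cacnb1 in 1, and Scn10a and Scn11a passed in 1 and 3. The cause was not tested. Over all probe sets, the 8 called for BDNF became 5 with arrays centred, 4 without the arrays apart in sex-linked genes, 4 to 10 with 1 array left out, 667 under the authors' criteria, and 0 with the 6 arrays alone or a replicate block. The 2 for NT4 became 1 with arrays centred, 671 under the authors' criteria, 0 to 5 with 1 array left out, and 0 with 6 arrays, a replicate block, or without those apart. The 5 for the difference became 3 with arrays centred, 0 with a replicate block, 1 without those apart, and 1 to 4 with 1 array left out. Counts between the wild types over all probe sets were 6275, and 4909 to 6440 with 1 array left out. With arrays centred the median over all probe sets changed sign, from −0.07 to 0.06 for the difference of effects and from 0.05 to −0.07 for NT4. The replicate numbers were not taken as pairs.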
